A study of Mus musculus with 13 samples.

Results

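Sorted cell populations of the 3-day-old mouse cochlea were compared: the cells from below the basilar membrane, here called BM, and the cells gated for high CD271, here called CD271high. BM was the 1 array whose sample title names cells below the basilar membrane, and CD271high were the 3 arrays (A, B and C) whose titles give the gate Math1nGFP- with high CD271, so 4 of the 13 arrays of the series enter the comparison. All samples came from C57BL6 mice carrying Math1-nGFP, a reporter in which the Math1 (Atoh1) enhancer drives green fluorescent protein in the nuclei of hair cells. BM cells were sorted as reporter-negative, CD271-low and CD326-negative. CD271high cells were reporter-negative with high CD271, carried no gate on CD146 or CD326 in their title, and are named suspected cochlear macrophages. The other arrays held hair cells (HC, reporter-positive, 4 arrays), cells of the greater epithelial ridge (GER, CD271-low, CD146-high, CD326-positive, 3 arrays) and Deiters' and Claudius cells (DC, CD271-low, CD146-low, CD326-positive, 2 arrays), and are given here as reference levels. CD271 is the low-affinity neurotrophin receptor, CD146 the adhesion molecule MCAM, and CD326 the epithelial adhesion molecule EpCAM. Whether the CD271high arrays came from separate animals or pools is not stated, so the spread between them may be technical.

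The basilar membrane carries the sensory epithelium. On its lower face, toward the scala tympani, lie the tympanic border cells, a layer of mesenchymal cells, with capillaries among them. Around it lie the fibrocytes of the spiral ligament and limbus, the nerve fibres with their Schwann cells, and the bone that is forming around the duct. Cochlear macrophages are tissue-resident phagocytes that depend on signals through the receptor CSF1R and take up dying cells and debris during postnatal remodelling. In a bulk sample, fewer cells of a type and less RNA per cell cannot be told apart.

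Values are log2 levels after background correction and quantile normalization. Since BM had 1 array, its level was set against the range of the 3 CD271high arrays and no test was made. A gene is called higher or lower when BM lay outside all 3 arrays and at least 2-fold (1 on the log2 scale) from their mean. For a gene list, the members that passed detection are given out of those on the array, and most passed through the side where they were high, so that counts and medians over them are descriptions. A probe counts as detected where its detection p was under 0.01. Where a gene was not detected on BM, or on any CD271high array, its fold is given as a lower bound, with the dim side placed at the bottom of the detected range of its arrays. A gene detected on 1 or 2 CD271high arrays was treated likewise, with only its undetected arrays so placed. Levels come from 1 probe a gene, and folds and bounds hold for that probe alone. Of 83 called list or named genes with another probe, 47 had one that differed from it by over 1.5 times, and 9 had one short of 2-fold in the called direction. The BM array detected 10875 of 25697 probes (42.3%), the fewest of the 4 arrays, and CD271high A 11618 (45.2%), the most. Raw signals had a median of 259 on BM and 280.4, 324 and 299 on CD271high A, B and C. BM and CD271high B and C shared beadchip 1, and CD271high A was on beadchip 2. The number of arrays limits the precision.

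The transcripts of the sorted proteins were read first. Ngfr, which encodes CD271, had a level of 9.21 on BM and of 8.82, 8.66 and 9.53 on CD271high A, B and C, so that the BM array lay within the CD271high range. The Ngfr transcript thus did not separate the population gated as CD271-high from the one gated as CD271-low, and in DC, gated as low, it was 12.13 to 12.86. Mcam, which encodes CD146, lay at 11.54 on BM and at 11.42, 11.16 and 11.58 on the CD271high arrays, again with overlap. Atoh1, whose enhancer drives the reporter, did not pass the detection filter. The gene of CD326, Epcam, was not analysed here.

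Short lists of defining markers were then read against the labels. Of 12 macrophage markers, 11 passed detection, and none of these was detected on BM while all 11 were detected on all 3 CD271high arrays. Their mean log2 level was 6.23 on BM and 12.51 to 12.63 on CD271high, against means of 5.71 in GER, 6.39 in DC and 6.72 in HC. Ptprc, the pan-leukocyte gene for CD45, was the marker that did not pass detection. The CD271high arrays also held epithelial markers at the level of the epithelial gates: 5 markers averaged 12.05 to 12.15 on CD271high, 12.38 in GER and 12.34 in DC, and 8.31 on BM. Markers undetected on BM could pass only through the CD271high arrays, so the macrophage counts describe the arrays and do not test the label. Macrophage and epithelial markers were measured side by side on every CD271high array. The glial markers that passed detection were bright in both populations. Of the 5 markers of Schwann or satellite glia on the array, Foxd3 and Cdh19 did not pass. The 3 that passed averaged 12.82 on BM and 11.94 to 11.95 on CD271high. Their means were 9.05 in GER, 8.82 in DC and 9.20 in HC. BM also carried the markers of several connective tissue and vessel cells. The 10 markers of fibroblasts or periotic mesenchyme averaged 12.04 on BM and 8.76 to 9.42 on CD271high. The 4 endothelial markers that passed averaged 9.68 and 5.90 to 6.64, the 5 pericyte markers 9.66 and 7.18 to 7.52, and the 4 chondrocyte or osteoblast markers that passed 11.42 and 8.02 to 8.42. Kdr of the endothelial markers and Bglap and Runx2 of the osteoblast markers did not pass.

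**Figure D1:**
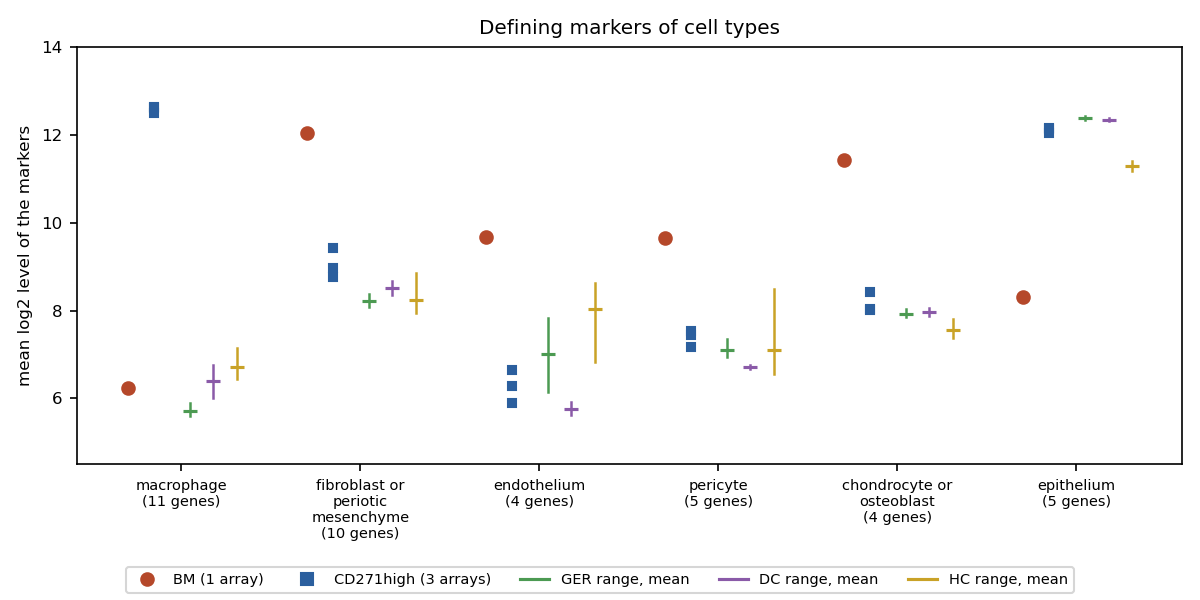
Mean log2 level of the defining markers of several cell types (vertical axis) on the BM array (circle) and the 3 CD271high arrays (squares), with the mean (dash) and range (line) of the GER, DC and HC arrays. Glial markers are not drawn. Macrophage markers average 6.23 on BM and 12.51 to 12.63 on CD271high, and epithelial markers stand at 12.05 to 12.15 on CD271high, close to GER and DC.

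Across all genes, 9487 passed detection on BM or on at least 2 CD271high arrays and were compared. Of these, 1376 were called higher on BM (14.5%) and 1270 called lower (13.4%). The counts of every gene list below are to be read beside these shares. At 4-fold or more the counts were 502 (5.29%) and 548 (5.78%), at 8-fold 221 (2.33%) and 292 (3.08%), and at 16-fold 78 (0.822%) and 145 (1.53%). The median difference over all genes, BM minus CD271high, was 0.09. Of the 1376 genes higher on BM, 776 were detected on all 3 CD271high arrays and 385 on none. Of the 1270 lower ones, 662 were detected on BM and 608 were not. For 1002 of the 1376 the BM level was also above every one of the other 12 arrays. For 506 of the 1270 all 3 CD271high arrays were above every one of the other 10, and for 490 the mean of GER or of DC was higher still than that of CD271high. Between 2 CD271high arrays, 261 to 370 genes (2.75% to 3.9%) differed by 2-fold or more. Across the 9487 genes, a description since genes are no replicates, the Pearson correlation ran from 0.977 to 0.982 among the CD271high arrays and from 0.794 to 0.805 between BM and them.

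**Figure D2:**
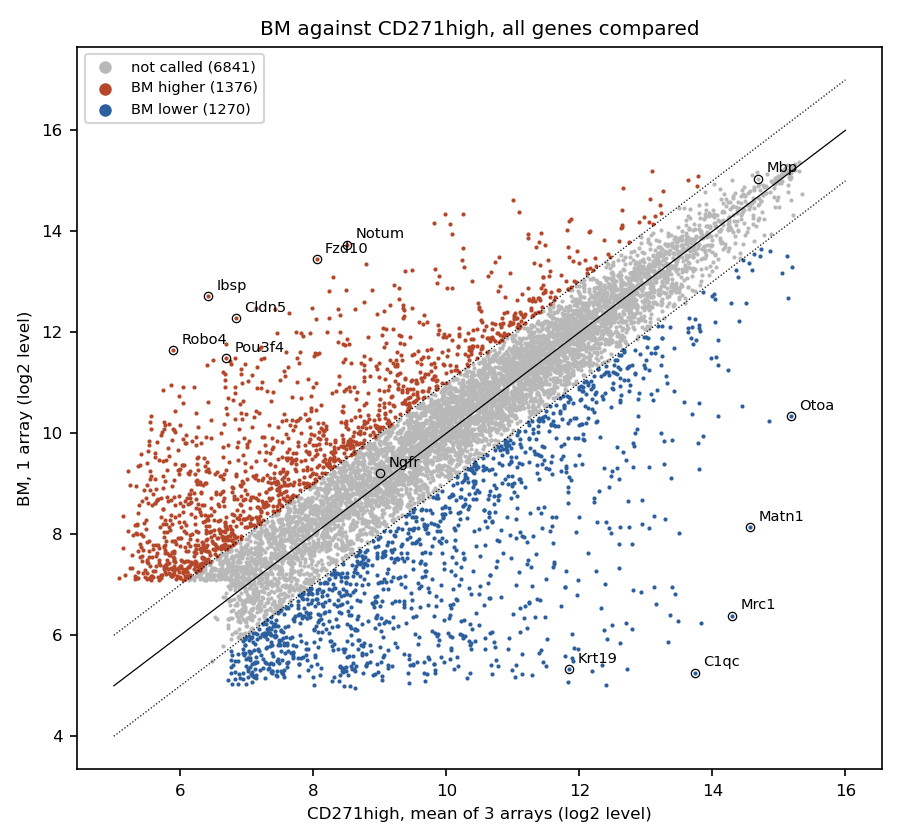
Level of each of 9487 genes on the BM array (vertical axis) against the mean of the 3 CD271high arrays (horizontal axis), both as log2 levels. The solid line marks equal levels, the dotted lines a 2-fold difference, and red and blue points the 1376 genes called higher and the 1270 called lower on BM.

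Most macrophage genes were not detected on BM and were bright on CD271high. Mrc1, the mannose receptor CD206 of tissue macrophages, had a level of 6.39 on BM, not detected, and of 14.43, 14.19 and 14.27 on CD271high A, B and C, at least 147-fold lower on BM. C1qb and C1qc, which encode 2 chains of complement C1q, were at 6.24 and 5.26 on BM. On CD271high, C1qb stood at 13.86, 13.68 and 13.93 and C1qc at 13.87, 13.47 and 13.87, so BM was at least 107-fold and at least 100.2-fold lower. The 3 CD271high arrays lay within 0.5 of each other for each of these genes, and BM was several units below all of them. Their promoters are shown because these were the 3 members of the macrophage list with the largest measured differences. PU.1, the transcription factor that establishes the myeloid lineage, is encoded by Spi1, itself at 5.84 on BM, not detected, and 8.89, 8.64 and 8.77 on CD271high. Each sequence is the 250 bases before the start site in RefSeq, build GRCm38.p6, 5′ to 3′ on the gene's strand, with the PU.1 motif AGGAAGT, or ACTTCCT where it lies on the other strand, in capitals.
C1qc: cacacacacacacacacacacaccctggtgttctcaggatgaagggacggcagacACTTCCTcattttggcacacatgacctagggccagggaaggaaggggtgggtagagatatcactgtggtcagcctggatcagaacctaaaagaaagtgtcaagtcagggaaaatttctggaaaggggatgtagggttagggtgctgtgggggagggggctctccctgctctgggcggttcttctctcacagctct
Mrc1: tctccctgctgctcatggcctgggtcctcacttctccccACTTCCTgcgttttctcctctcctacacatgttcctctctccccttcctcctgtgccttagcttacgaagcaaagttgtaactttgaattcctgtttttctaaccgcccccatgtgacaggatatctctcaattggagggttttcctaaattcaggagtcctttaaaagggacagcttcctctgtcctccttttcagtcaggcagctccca
C1qb: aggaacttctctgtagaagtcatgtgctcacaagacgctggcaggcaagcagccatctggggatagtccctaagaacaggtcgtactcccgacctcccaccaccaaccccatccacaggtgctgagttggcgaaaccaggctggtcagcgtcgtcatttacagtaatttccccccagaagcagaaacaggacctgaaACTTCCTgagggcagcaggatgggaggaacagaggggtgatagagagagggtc
The C1qc sequence is chr4:136892915-136893164 (minus strand), Mrc1 chr2:14229164-14229413 (plus strand) and C1qb chr4:136886201-136886450 (minus strand), and in each the motif lies on the other strand. Of 18 called members of the macrophage list with a promoter in the table, 8 held the motif on either strand (44.4%), against 8.8% of the 27025 genes of the table. The longer form GAGGAAGT, which contains it, was in 2 of the 18 (11.1%) and in 2.79% of all. A match describes the letters and not a binding site, and the letters of the motifs were chosen after several forms had been counted. The 18 members were called in these same data, and the 27025 genes were not filtered for detection. These shares are therefore a description, and regulation by PU.1 was not tested.

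Of the 27 of 32 members of the macrophage list that passed detection, 27 were called lower on BM and 0 higher (median difference -5.71, or -4.70 with undetected sides at their lowest detectable level; 0.09 over all genes). Of the 27, 4 were detected on BM. Csf1r, the receptor for the growth factors that keep macrophages alive, was at 6.82 on BM and 13.38, 13.33 and 13.57 on CD271high, at least 81.0-fold lower on BM. Another Csf1r probe differed by -4.33, against -6.61 for the probe used. Cx3cr1, the fractalkine receptor, was at least 57.2-fold lower (6.86 against 13.17, 12.75 and 12.86), and Adgre1, which encodes the F4/80 antigen, at least 37.5-fold lower (6.55 against 12.50, 12.30 and 12.16). Lyve1, a hyaluronan receptor also found on lymphatic vessels, stood at 5.01 and 12.38, 12.37 and 12.44, and Cd163, the haemoglobin scavenger receptor, at 5.30 and 11.08, 11.15 and 10.71. Of the 27, 26 had all 3 CD271high arrays above every other array of the series. Mertk, a receptor for the uptake of dying cells that epithelia also use, was the exception. It was at 9.06 on BM, 10.79, 10.33 and 10.17 on CD271high and 9.71 to 10.31 in DC. The GER mean of Mertk was above its CD271high mean. Laptm5, whose protein sits in the lysosomes of leukocytes, was detected on BM (10.25) but stood at 14.93, 14.76 and 14.88 on CD271high, and in HC it was 13.33 to 13.67. Lyz1 and Lyz2 are near-identical lysozyme genes whose probes may not tell them apart. Lyz2 was at 7.34 on BM and 13.12, 12.53 and 12.15 on CD271high.

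Complement, Fc receptor and chemokine genes were mostly lower on BM. Of the 14 of 21 complement and Fc receptor genes that passed, 10 were lower on BM and 1 higher (median difference -5.78, or -4.14 with undetected sides at their lowest detectable level). Fcer1g, the signalling chain that activating Fc receptors share, was at least 78.7-fold lower (6.96 against 13.48, 12.89 and 13.79). Fcrls, an Fc receptor-like gene used as a mouse microglia marker, was at least 83.6-fold lower, and Fcgr3, a low-affinity receptor for IgG, at least 42.1-fold. C4b, a complement gene of liver and connective tissue, was the one higher on BM, at 8.31 against 7.28, 7.03 and 7.21. That call is lost when arrays are scaled to a common median (0.98) and in the authors' deposited log2 table (0.57). Among the 18 of 30 chemokine genes and receptors, 12 were lower and 4 higher (median difference -2.14, or -1.59 with undetected sides at their lowest detectable level). The lower ones included chemokines that macrophages release: Ccl4 (at least 34.4-fold lower), Ccl12 (at least 45.8-fold) and Ccl3 (at least 21.3-fold). Another Ccl4 probe differed by -3.18, against -6.90 for the probe used. Pf4, platelet factor 4, which tissue macrophages also express, was at least 77.4-fold lower. The higher ones were Ccl11, the eosinophil attractant eotaxin (10.51 against 6.96, 6.53 and 6.59), Cxcl12, the stromal ligand of CXCR4 (12.88 against 10.12, 9.97 and 10.16), its scavenger receptor Ackr3 (9.48 against 8.18, 7.08 and 7.56), and Cx3cl1, the fractalkine ligand (9.70 against 8.63, 8.29 and 8.20). The call of Cx3cl1 is lost in the authors' deposited log2 table (0.94), and 1 of the other 3 Cxcl12 probes fell short of 2-fold (0.92).

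Antigen presentation and lysosomal genes were in part lower on BM. Of the 8 of 17 genes of MHC class II and dendritic cells that passed, 5 were lower on BM and 1 higher. Cd86, a costimulatory ligand, was at least 16.6-fold lower (5.23 against 11.27, 11.33 and 10.82), and Cd74, the invariant chain of MHC class II, at least 3.60-fold lower (6.35 against 9.40, 8.05 and 9.36). Other Cd86 probes differed by -2.76 and -5.69, against -5.91 for the probe used. H2-Ab1, an MHC class II chain, lay at 6.97 on BM and 7.88, 7.29 and 7.76 on CD271high and was not called. H2-Aa and H2-Eb1 did not pass detection. Of lysosome genes 29 of 29 passed; 11 were lower on BM, 1 was higher and 17 were not called (median difference -0.81). Lgmn, the protease legumain, differed by -3.92 and Ctss, cathepsin S of antigen-presenting cells, by -3.11, while proteins of lysosomes in all cells such as Lamp1 (difference -0.83) and Psap (-0.56) stayed within 2-fold. Ctsk, cathepsin K, which digests collagen, was the one lysosomal gene higher on BM (12.67 against 9.59, 9.16 and 9.10). Genes of other leukocytes gave little signal: 8 of 25 passed, of which Cd79b, a B cell receptor chain, was lower (5.62 against 9.26, 9.34 and 9.47) and Ltf, neutrophil lactoferrin, higher (7.15 against 5.94, 5.29 and 5.76), the second lost at the lowest detectable level (0.32) and in the authors' deposited log2 table (0.55).

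Epithelial genes formed the second large group lower on BM. Of the 26 of 31 epithelial genes that passed, 24 were lower, 0 higher and 2 not called (median difference -3.45, or -2.39 with undetected sides at their lowest detectable level). Krt19, a keratin of simple epithelia, was at 5.32 on BM, not detected, and 11.71, 11.64 and 12.19 on CD271high, at least 27.0-fold lower. Grhl2, a transcription factor that maintains epithelial identity, was at 6.14 and 11.22, 11.32 and 11.10, and the tight junction gene Cldn6 was 22.6-fold lower. Prss8, which encodes the membrane protease prostasin, was 27.7-fold lower (7.81 against 12.46, 12.55 and 12.79). Unlike the macrophage genes, these were shared with the epithelial gates. For 20 of the 26 the GER or DC mean was above that of CD271high, and for 3 all 3 CD271high arrays were above every other array. Cdh1, which encodes E-cadherin, was bright on BM too, at 11.49 against 12.14, 12.28 and 12.30, and was not called. The probe of Cdh1 gave 12.33 to 12.54 in GER and 12.16 to 12.49 in HC. The BM level of this gene, in a population gated as CD326-negative, stood beside undetected Krt19, Krt18 (5.95) and Grhl2.

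Several genes of inner ear matrix and ion transport were brighter on CD271high than in any epithelial gate. Otoa, which encodes otoancorin, the protein that attaches the tectorial membrane to the spiral limbus, was at 15.13, 15.12 and 15.30 on CD271high, 13.76 to 14.23 in GER, 14.19 to 14.33 in DC and 10.34 on BM, 28.7-fold lower than CD271high. Matn1, the cartilage matrix protein matrilin 1, was 86.1-fold lower on BM (8.14 against 14.62, 14.72 and 14.35), with 13.72 to 13.84 in GER. Krt23, a keratin, was at least 66.5-fold lower (6.62 against 13.16, 13.32 and 12.97) and reached 10.03 to 10.92 in GER. On each of these genes the 3 CD271high arrays were above all other arrays. Slc26a4, the anion exchanger pendrin, was at 6.36 on BM, 11.18, 11.71 and 11.54 on CD271high and 10.56 to 10.61 in DC, and Car9, a membrane carbonic anhydrase, was at least 48.7-fold lower on BM. Other Car9 probes differed by -3.71 and -6.68, against -6.46 for the probe used. Cited4, a transcriptional coactivator, was also among the 15 genes furthest down, at least 52.1-fold lower (6.11 against 12.42, 12.57 and 13.39). Of the 12 of 15 genes of the greater ridge and tectorial membrane that passed, 6 were lower on BM and 1 higher. Tecta, alpha-tectorin, was at 13.23 against 14.61, 14.53 and 14.65, and Tectb, beta-tectorin, at 14.33 against 14.96, 14.75 and 14.14, which was not called.

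**Figure D3:**
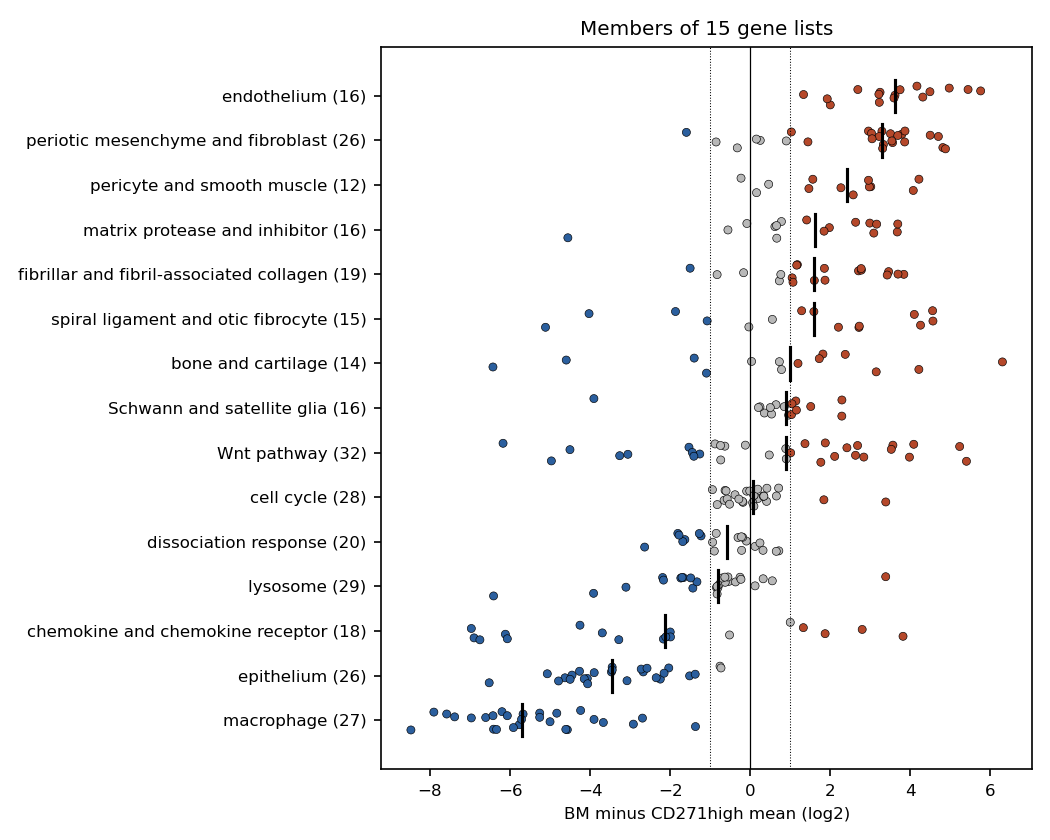
Difference of each member of 15 gene lists, BM minus the CD271high mean on the log2 scale (horizontal axis), with the list median as a bar and the number of members compared in brackets. Red points are called higher on BM, blue lower, grey not called; the endothelium list has a median of 3.60 and the macrophage list of -5.71.

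Mesenchymal genes were mostly higher on BM. Of the 26 of 29 genes of periotic mesenchyme and fibroblasts that passed, 20 were higher, 1 lower and 5 not called (median difference 3.30, or 2.97 with undetected sides at their lowest detectable level). Pou3f4, the POU factor of otic mesenchyme whose loss causes X-linked deafness, was at 11.49 on BM and 7.30, 5.86 and 6.89 on CD271high, at least 22.4-fold higher. Tbx18, a T-box factor needed for otic fibrocytes, was at least 14.7-fold higher (10.91 against 7.39, 5.74 and 5.50), and Pdgfra, the receptor that marks fibroblasts, 14.5-fold (13.95 against 10.26, 10.03 and 9.98). No CD271high array came within 3 units of BM for these genes. Foxc2 (at least 17.0-fold), Osr2 (at least 19.1-fold) and Twist2 (at least 12.9-fold), all transcription factors of connective tissue, were higher as well. CD271high A had the highest CD271high level of Tbx18, 7.39 against 5.74 and 5.50. On 21 of the 26 genes BM was above every other array. Some genes held to be mesenchymal did not separate the 2 populations. Vim, vimentin, was at 11.64 and 11.12, 11.43 and 11.62, and Gpc3, a glypican, at 13.16 and 13.54, 13.45 and 13.48, neither called. Lum, the proteoglycan lumican, was the one lower on BM, at 12.10 and 13.89, 13.86 and 13.34.

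The list of spiral ligament and otic fibrocyte genes, not all of them particular to fibrocytes, divided. Of the 15 of 16 that passed, 9 were higher on BM and 4 lower (median difference 1.59). Coch, which encodes cochlin, the most abundant matrix protein of the cochlea, was at least 8.84-fold higher (9.97 against 5.96, 5.86 and 5.33). Otos, otospiralin of fibrocytes, was at least 13.8-fold higher, Otor, otoraplin, 23.5-fold, and the water channel gene Aqp1 17.1-fold (14.35 against 10.67, 9.89 and 10.20). The lower ones included Slc26a4, also bright in DC as given above, and Ucma, a cartilage matrix gene (8.24 against 12.69, 12.55 and 11.56). Atp1b1, which encodes a subunit of the sodium pump, was lower as well (difference -1.87). Of the 11 of 17 tympanic border and mesothelial genes that passed, 5 were higher, 3 lower and 3 not called (median difference 0.80, or 0.63 with undetected sides at their lowest detectable level); the lower ones were the keratin genes Krt8 (-3.90), Krt18 (-4.63) and Krt19 (-6.52). Emilin2, an elastin-binding glycoprotein known from the basilar membrane and tympanic border cells, was 14.4-fold higher (13.22 against 10.11, 8.89 and 9.12). The mesothelial markers of that list (Wt1, Upk3b, Msln and Lrrn4) did not pass detection.

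**Figure D4:**
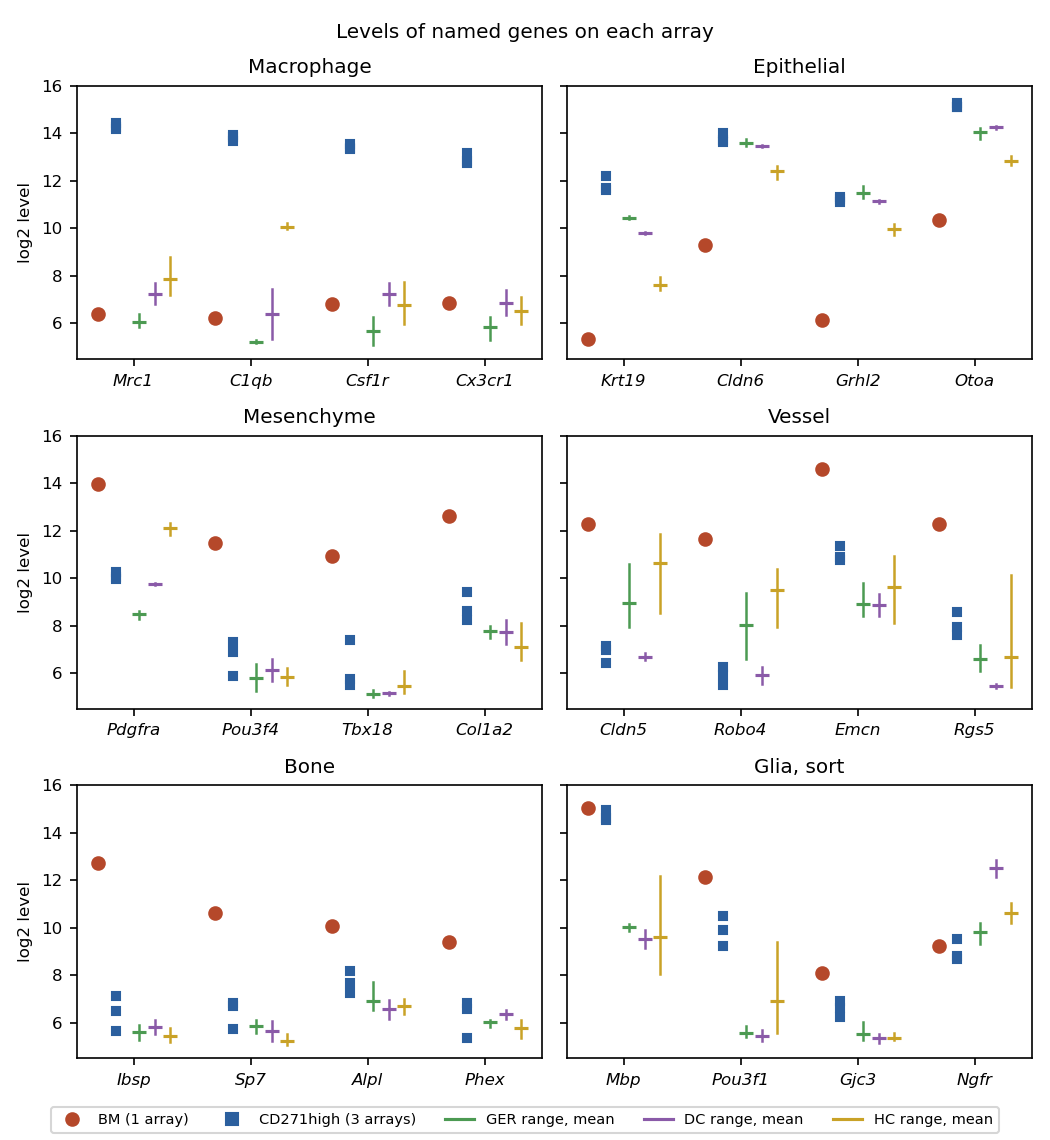
Log2 level (vertical axis) of 24 genes in 6 groups on the BM array (circle) and each CD271high array (squares), with mean and range of GER, DC and HC. Macrophage genes stand apart on CD271high, epithelial genes are shared by CD271high, GER, DC and HC, mesenchyme, vessel and bone genes peak on BM, and Mbp is high on BM and CD271high.

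Most fibrillar collagen genes were higher on BM, while basement membrane genes lay on both sides. Of the 19 of 21 fibrillar and associated collagens that passed, 14 were higher, 1 lower and 4 not called (median difference 1.60, or 1.45 with undetected sides at their lowest detectable level). Col1a2, a chain of type I collagen, was 14.3-fold higher (12.60 against 9.42, 8.25 and 8.61). Col6a1, a chain of the microfibrillar type VI, was 10.7-fold (13.26 against 10.23, 9.50 and 9.78), and Col3a1 6.51-fold (13.50 against 10.54, 10.77 and 11.07). Of the cartilage collagens, Col2a1 (14.85 and 14.13, 14.05 and 14.18) and Col9a2 (14.52 and 14.53, 14.79 and 14.75) stood high on both sides and were not called. Col11a2 was not called either (difference 0.76). Col9a3 (1.87) and Col9a1 (1.07) were called higher and Col11a1 (-1.50) lower, each call lost in the authors' deposited log2 table. Of the basement membrane genes, 19 of 21 passed, and 4 were higher, 5 lower and 10 not called. The shares over all genes compared were 14.5% higher and 13.4% lower. Col4a1 (14.72 against 14.52, 14.34 and 14.55), Agrn (14.97 against 14.99, 14.93 and 14.92) and Hspg2, perlecan (14.43 against 13.92, 13.97 and 13.84), all common basement membrane components, stayed within 2-fold. Lamc3, a laminin chain, was at least 19.3-fold higher (11.37 against 7.50, 6.91 and 5.87), and Col15a1, found in vessel and muscle basement membranes, 3.91-fold higher.

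Among the 26 of 35 proteoglycans and glycoproteins that passed, 13 were higher on BM and 4 lower. Spon2, a secreted spondin (13.4-fold), and Fbln1, fibulin 1 (12.0-fold), were higher. Other Fbln1 probes differed by 1.94 and 2.20, against 3.58 for the probe used. Epyc, epiphycan (11.13 against 13.21, 13.56 and 13.15), and Eln, elastin (10.89 against 12.75, 12.54 and 12.18), were lower. Most collagen processing genes were not called: 6 of 17 were higher, 1 lower and 10 within 2-fold or within the range. Pcolce, which enhances procollagen cleavage, was 4.97-fold higher, while Lox, lysyl oxidase, was at 10.81 and 10.93, 10.94 and 10.34. Matrix proteases and inhibitors were 9 of 16 higher and 1 lower. Timp1, an inhibitor of metalloproteases, was 8.92-fold higher (11.08 against 7.96, 7.99 and 7.82), and Fap, a fibroblast surface protease, at least 11.9-fold. Plau, urokinase, was the lower one, at least 9.65-fold lower (5.80 against 10.44, 10.58 and 10.06). Mmp2, the main gelatinase of fibroblasts, was at 14.95 and 14.91, 15.21 and 14.98.

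The gene furthest up of all was a bone gene. Ibsp, which encodes bone sialoprotein of mineralizing osteoblasts, was at 12.71 on BM and at 7.13, 6.47 and 5.63 on CD271high, at least 54.3-fold higher, and was detected on 1 of the 3 CD271high arrays. Sp7, the osteoblast transcription factor osterix, was at least 13.7-fold higher (10.62 against 6.82, 5.72 and 6.68), Phex, a regulator of phosphate handling in osteocytes, at least 5.94-fold and Alpl, the alkaline phosphatase of mineralization, 5.18-fold. As the call rule requires, all 3 CD271high arrays were below BM for these genes. In the whole list of bone and cartilage genes, 14 of 22 passed, 7 of them higher, 4 lower and 3 not called. Cartilage genes lay on both sides. The lower ones were Matn1, Cnmd, which encodes chondromodulin (5.56 against 10.18, 10.43 and 9.87), Sox5 (difference -1.40) and Sox9 (difference -1.09). Sox9 is not called without CD271high B (-0.97) or in the authors' deposited log2 table (-0.98). Acan, the cartilage proteoglycan aggrecan, was called higher (7.49 against 5.58, 5.87 and 5.57) but was undetected on all CD271high arrays and is not called at its bound or in the authors' deposited log2 table, and Col2a1 and Chad were not called (difference 0.73 and 0.78). Bglap, which encodes osteocalcin, and Runx2 did not pass detection. Ctsk, given above, is also an osteoclast gene. The other osteoclast genes that passed were lower on BM, Tnfrsf11a, the receptor RANK, at 5.61 against 9.47, 9.18 and 9.68 and Nfatc1 at 8.80 against 10.40, 10.51 and 10.09 (another Nfatc1 probe differed by -0.72), and Acp5, Calcr and Ocstamp did not pass.

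Vessel genes were higher on BM. Of endothelial genes 16 of 18 passed, 16 detected on BM, and each was called higher (median difference 3.60, or 3.12 with undetected sides at their lowest detectable level). Kdr and Erg did not pass. Of the 16, 4 were detected on all 3 CD271high arrays, and genes undetected on CD271high could pass only through BM. Cldn5, the claudin of endothelial tight junctions, was at least 40.0-fold higher, with 12.27 on BM and 6.41, 7.14 and 6.95 on CD271high. Robo4, an endothelial guidance receptor, was not detected on any CD271high array and was at least 28.3-fold higher (11.65 against 5.50, 5.91 and 6.26). Flt1, a VEGF receptor, was at least 24.8-fold higher (11.46 against 5.90, 6.68 and 6.89), and Esam, an endothelial adhesion molecule, 22.4-fold. For 15 of the 16 genes BM was above every other array. Other populations held some of these transcripts: Flt1 reached 10.23 to 10.83 in DC and Cldn5 8.52 to 11.84 in HC, above CD271high in both cases. Emcn, endomucin, was also detected on CD271high, at 11.33, 10.91 and 10.75 against 14.61 on BM. The calls of Tie1 and Vwf are lost in the authors' deposited log2 table (0.77 and 0.78), and that of Tie1 also at its bound (0.92). Of the 12 of 15 pericyte and smooth muscle genes, 9 were higher and 0 lower (median difference 2.42, or 2.08 with undetected sides at their lowest detectable level). Rgs5, a regulator of G protein signalling in pericytes, was 18.5-fold higher (12.26 against 8.58, 7.94 and 7.62) and Des, desmin, at least 16.2-fold. Notch3, the pericyte Notch receptor, was at 10.33 and 9.84, 9.72 and 10.06 and was not called. Tagln, Myh11 and Cnn1 of smooth muscle did not pass detection. Adcy4, an adenylyl cyclase, and Scin, the actin-severing protein scinderin, are in no list but were among the 15 genes furthest up, 32.9-fold and at least 27.0-fold higher.

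The glial genes that passed detection stood high on average in both populations. Mbp, myelin basic protein, was at 15.04 on BM and 14.94, 14.61 and 14.52 on CD271high, while GER, DC and HC had means of 10.01, 9.51 and 9.60. BM lay above all 3 arrays for Mbp, by 0.35 over the mean, under 2-fold, and it was not called. The direction rests on this probe: the other 2 Mbp probes differed by -3.12 and -0.18. Of the 16 of 21 genes of the glia list that passed, 7 were higher, 1 lower and 8 not called (median difference 0.90). Foxd3, Cdh19, Gfra3, Scn7a and Gfap did not pass detection. Pou3f1, a Schwann cell factor that promotes myelination, was 4.88-fold higher (12.15 against 10.48, 9.88 and 9.24), and Gjc3, a connexin of myelinating glia, at least 2.36-fold (8.09 against 6.61, 6.92 and 6.22), a call lost in the authors' deposited log2 table (0.66). Artn, the growth factor artemin, was the one lower (5.53 against 9.13, 9.66 and 9.52). The list averaged 11.58 on BM, 10.79 to 11.01 on CD271high, 8.83 in GER and 8.93 in DC. Of the 12 of 20 neuronal genes that passed, 5 were higher and 5 lower. Gap43, of growing axons and repair Schwann cells, was higher (10.26 against 7.95, 7.32 and 8.04) and Scg2, secretogranin, lower (5.00 against 8.83, 9.42 and 7.39). The 4 defining neuron markers (Elavl3, Nefl, Snap25 and Prph) did not pass detection. Hba-a1, alpha globin, whose near-identical copy may share its probe, was at 11.95 on BM and varied between the CD271high arrays, at 9.68, 8.74 and 11.68. The list of dissociation response genes, which cell isolation induces, averaged 10.86 on BM and 11.54, 12.05 and 11.07 on CD271high A, B and C. Of the 20 of 27 such genes, 7 were lower on BM and 0 higher, with Fosb at 9.40 against 11.47, 13.19 and 11.46 and Dusp1 at 11.20 against 12.87, 13.80 and 11.85. The part of this response in the other results was not tested.

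Wnt pathway genes lay on both sides and included 2 of the 4 genes furthest up. Wnt proteins bind Frizzled receptors, stabilise beta-catenin and switch on targets through TCF/LEF factors; several targets encode feedback inhibitors, and R-spondins amplify the signal. Of the 32 of 50 genes that passed, 15 were higher on BM, 9 lower and 8 not called (median difference 0.89, or 0.68 with undetected sides at their lowest detectable level). Among ligands, Wnt7a was at 6.36 on BM and 11.21, 11.37 and 11.41 on CD271high, at least 18.9-fold lower, and Wnt7b 22.7-fold lower (7.63 against 11.96, 12.29 and 12.15). Both were at least as high in GER (11.52 and 12.53) as on CD271high. Wnt6 was higher on BM (8.97 against 6.86, 6.03 and 6.13), and Wnt5a, at 12.33 on BM, was not called (difference -0.64). Rspo2, an R-spondin, was at least 28.4-fold lower on BM (5.74 against 11.57, 12.33 and 11.85). Of the receptors, Fzd10 was 42.2-fold higher (13.45 against 8.85, 7.63 and 7.67) and Fzd1 at least 6.79-fold. The other 2 Fzd10 probes differed less, by 3.29 and 2.92 on the log2 scale against 5.40. Several genes known as targets and feedback inhibitors stood on the BM side. Notum, which inactivates Wnt proteins, was 37.5-fold higher (13.74 against 9.19, 8.36 and 7.98), and the secreted inhibitor Wif1 11.8-fold. Axin2, the general Wnt target and a known marker of tympanic border cells, was 4.31-fold higher (12.58 against 10.50, 10.29 and 10.62), Lef1 at least 5.85-fold and Nkd2 at least 7.46-fold. Sp5, a target transcription factor, was at 12.46 on BM and 8.77, 8.30 and 8.06 on CD271high, 16.9-fold higher. That the 3 CD271high arrays were below BM on each of these target genes follows from the call rule. Sp5 reached 10.61 to 11.73 in HC. Sfrp1, a secreted antagonist, ran the other way (9.31 against 12.47, 12.46 and 12.79). The promoter of Sp5 is shown as the called member with the largest difference whose 250 bases hold the TCF/LEF core CTTTGAT on either strand, in capitals and here on the gene's own strand, in RefSeq build GRCm38.p6 at chr2:70474673-70474922 (plus strand).
Sp5: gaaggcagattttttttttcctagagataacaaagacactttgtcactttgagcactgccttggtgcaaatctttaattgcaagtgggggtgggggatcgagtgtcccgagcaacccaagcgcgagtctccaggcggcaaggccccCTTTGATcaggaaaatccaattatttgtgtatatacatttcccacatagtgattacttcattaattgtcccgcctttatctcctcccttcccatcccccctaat
The core was present in 2 of 12 promoters of Wnt genes higher on BM (16.7%), in 0 of 4 of those lower and in 3.72% of the 27025 genes of the table. Here too the shares are a description, and regulation through TCF/LEF was not tested.

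**Figure D5:**
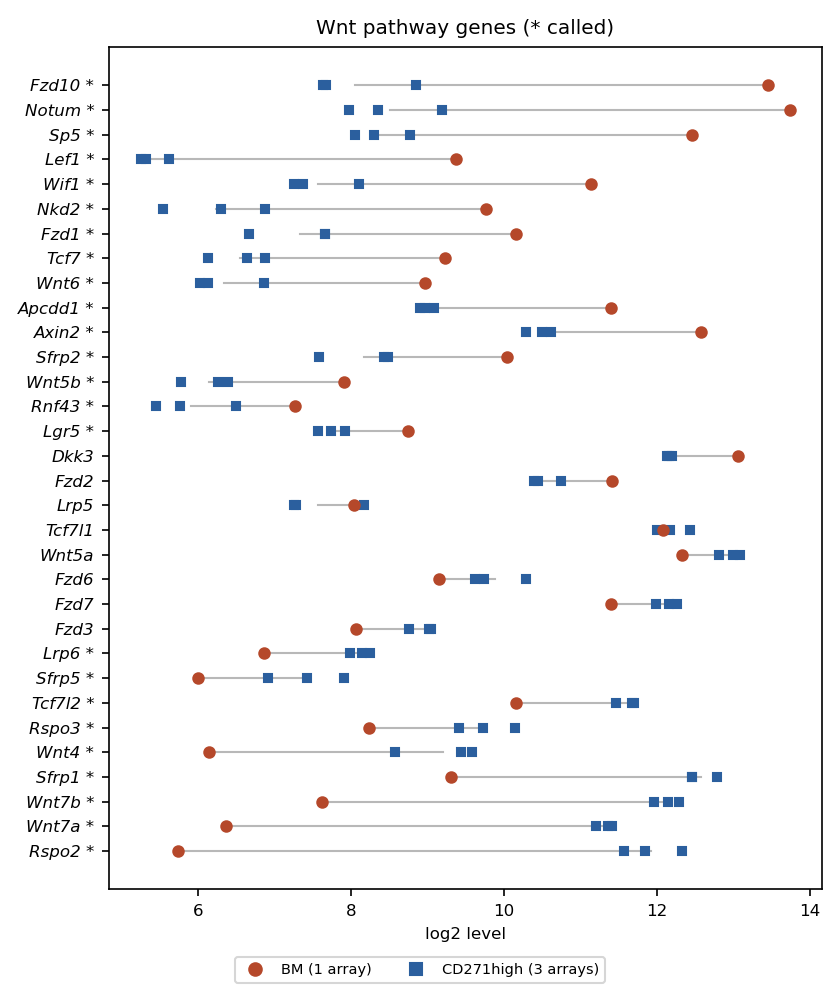
Log2 level (horizontal axis) of the 32 Wnt pathway genes compared, on the BM array (circle) and on each CD271high array (squares), ordered by difference; the grey line joins BM and the CD271high mean, and an asterisk marks a called gene. Fzd10, Notum and Sp5 stand highest above CD271high and Rspo2, Wnt7a and Wnt7b furthest below.

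Growth factor genes and their receptors lay on both sides. Of the 34 of 44 that passed, 13 were higher on BM, 12 lower and 9 not called (median difference 0.10, or 0.17 with undetected sides at their lowest detectable level). The shares over all genes compared were 14.5% higher and 13.4% lower. Csf1, the ligand of CSF1R, was at 8.57 on BM and 5.95, 5.48 and 6.31 on CD271high, where no array detected it, at least 3.35-fold higher on BM. Csf1r, as given above, was on the CD271high side. The platelet-derived growth factor genes Pdgfa (11.00 against 12.89, 13.56 and 13.50) and Pdgfc (9.25 against 12.27, 12.83 and 12.37) were lower on BM, and their receptor genes Pdgfra and Pdgfrb (10.99 against 8.22, 7.79 and 8.11) higher. Gas6, a ligand of the receptors AXL and MERTK, was 9.34-fold lower and Axl 2.76-fold higher on BM. Igf1 was 6.97-fold lower (9.07 against 12.13, 11.78 and 11.71), whereas Igf2, the fetal insulin-like growth factor, was at 15.25 and 15.26, 15.15 and 15.19. The binding protein genes Igfbp2 (5.69-fold) and Igfbp7 (5.03-fold) were higher on BM. Whether any of these proteins were exchanged between the cells was not measured.

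Among the 27 of 37 genes of the TGF-beta and BMP pathways that passed, 6 were higher, 6 lower and 15 not called. Over all genes compared, 14.5% were higher and 13.4% lower. Gdf10, a secreted member of the family, was 20.6-fold higher (14.34 against 10.54, 10.02 and 9.37) and Bmp4 6.49-fold (11.78 against 9.32, 8.53 and 9.40). Bmp3 was at least 7.92-fold lower (5.76 against 10.06, 10.14 and 10.03), Bmp6 at least 4.07-fold and Tgfb2 3.83-fold. Cell cycle genes were close: of 28 of 34 that passed, 2 were higher, 0 lower and 26 not called (median difference 0.07), and the list averaged 9.90 on BM, 9.59 to 9.93 on CD271high, 7.66 in GER and 7.71 in DC. Ccnd2, cyclin D2, was 10.4-fold higher on BM (12.54 against 9.19, 9.09 and 9.17), and Cdk1, the mitotic kinase, was at 9.53 and 10.18, 10.54 and 10.70, not called. The other Cdk1 probe had the opposite sign, with a difference of 1.06. Of the Cdk inhibitors, Cdkn1a was higher (12.84 against 11.77, 11.57 and 11.69) and Cdkn1c, p57, was not called, at 14.93 and 14.92, 14.91 and 14.97. Transcripts of 4 further genes stood among the 15 furthest up. Nkx6-1, a homeodomain factor of neural tube and pancreas, was at 13.09 on BM and 8.82, 7.82 and 8.24 on CD271high, 27.7-fold higher, with 5.37 to 7.87 in HC. Slco1c1, a thyroxine transporter, was at least 23.7-fold higher (12.37 against 8.70, 7.83 and 6.36), Pcsk2, a prohormone convertase, at least 21.1-fold, and Cntnap4, a contactin-associated protein, 23.9-fold.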

How the data were processed

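Per the labels, cRNA from sorted cells was amplified, biotin-labelled and hybridised to Illumina arrays. Per the file headers, the scanner table gives a mean bead intensity and a detection p-value per probe and array, not normalized. A second deposited table held the authors' quantile-normalized log2 values. Probes were named through the GRCm38.p6 RefSeq gene table by accession or Entrez ID (24358), and 1339 kept the file's symbol.

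In R 4.3.3 with limma 3.58.1, neqc (normexp from detection p-values, offset 16, quantile, log2) was applied to all 13 arrays. Probes detected (p under 0.01) on BM or on at least 2 CD271high arrays were kept (12277), with the probe of the highest mean per gene, which left 9487 of 18038 genes. The comparison and its call rule were checked on simulated data. No test was made. The 13 alternatives, 1 of them added after seeing the data, changed normalization, filter, probe, bound, fold or 1 array. Bead standard errors and bead numbers were not used. There were 40 lists with 982 entries, 934 on the array, written from general knowledge. Members and lists were chosen with earlier results of these data known. A few genes are not reported here. Genes named were the 15 furthest up and down, leaving out clone and predicted names, list members by size of difference, and the sort markers.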

Additional observations from a re-analysis of the deposited data

How the results depend on the processing

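Calls rested on 1 BM array, and no setting can show how far a second BM array would have differed. Counts of genes higher and lower on BM were 1376 and 1270. They were 782 and 796 in the authors' deposited log2 table (every one of those calls was also made here; the cause was not tested) and 502 and 548 at 4-fold. Without CD271high A, B or C in turn they ranged from 1363 to 1432 and from 1253 to 1310. Leaving out CD271high A leaves arrays of beadchip 1 alone (1418 and 1253, of which 1310 and 1204 were also called with all arrays). With undetected sides at their lowest detectable level they were 1197 and 1013. With each undetected CD271high array at that level, an alternative chosen after seeing the data, they were 1159 and 1270 (372 of 389 calls kept). In the other settings they stayed between 1210 and 1483 and between 1271 and 1340. With undetected sides at that level, 5 of 389 called genes of the lists changed sign, since BM is then bounded above the CD271high mean: Col11a1 (0.32), Ntf3 (0.23), P4ha3 (0.20), Pfkp (0.14) and Thbs1 (0.33); for these no fold can be given. The other settings changed the sign of none, and of the 389 calls 316 were kept in the authors' table, 353 with undetected sides at that level and 380 to 384 on leaving out 1 CD271high array. The share of calls that were higher lay between 47.7% and 54.2%. Of 574 further probes of called genes, 32 had the opposite sign and 156 in all did not reach 2-fold in the called direction. No paired analysis was possible because BM has 1 array and shares 1 replicate letter with CD271high. Dim signal limits what can be said of genes near background.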

Other observations

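Genes of the sensory epithelium divided between the populations. Of the 12 of 22 hair cell genes that passed, 6 were higher on BM and 3 lower. Calb2, the calcium buffer calretinin, was at 11.49 on BM and 7.35, 7.20 and 7.23 on CD271high, 18.8-fold higher, against 14.64 to 14.94 in HC. Myo7a, the stereocilia myosin, was at least 3.83-fold lower on BM (5.19 against 9.04, 8.67 and 9.36). Pou4f3 and Gfi1 did not pass detection on either side. Among supporting cell genes, Ptgds, prostaglandin D synthase, was at least 29.2-fold lower on BM (6.80 against 11.78, 12.10 and 12.00), and S100b, a calcium-binding protein also of glia, higher (8.52 against 6.48, 6.34 and 5.87). In the Notch list 5 of 14 were higher and 1 lower. Notch4, the endothelial Notch receptor, was 9.42-fold higher (11.78 against 7.98, 9.23 and 8.42).

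Further groups are to be read beside 14.5% higher and 13.4% lower over all genes compared. All but the interferon-induced genes had members called on both sides. Among 25 axon guidance genes, 7 were higher and 6 lower. Epha3, an Eph receptor, was 15.5-fold higher (12.84 against 9.28, 8.35 and 9.02) and Slit3, a repellent ligand, at least 10.3-fold lower (6.44 against 10.04, 10.65 and 10.67). Other Epha3 probes differed by 2.07 and 2.21, against 3.95 for the probe used. Of 10 retinoic acid genes, 5 were higher and 1 lower. Aldh1a2, a retinoic acid synthase, was at least 3.49-fold higher (8.63 against 6.46, 6.07 and 5.92), and Rarb, a retinoic acid receptor, 3.74-fold. Cadherins and integrins were 10 of 23 higher and 6 lower. Cdh3, P-cadherin of epithelia, was at least 16.8-fold lower (6.34 against 11.05, 11.32 and 11.12), and Vcam1, an adhesion ligand for leukocytes, 7.66-fold higher (12.29 against 9.41, 9.40 and 9.26). Of 21 interferon-induced genes, 10 were lower on BM and 0 higher, with Oas2 at least 3.15-fold lower. Of 18 genes of hypoxia and glycolysis, 2 were higher and 5 lower. Aldoc, an aldolase of brain, was 11.1-fold lower (9.34 against 12.59, 12.95 and 12.87), and Gapdh was at 14.59 and 14.72, 14.67 and 14.80. In the melanocyte and stria list, Dct, a melanin enzyme, was at least 5.16-fold higher on BM (9.19 against 6.52, 6.53 and 6.51) and the channel gene Kcnq1 lower (difference -2.01), a call lost in the authors' deposited log2 table (-0.83) and at its bound (-0.98).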
